A study of Homo sapiens with 4 samples.

Results

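SAE1 and its processed pseudogene SAE1P1 are described here through the peaks of immunoprecipitated RNA (IP) that lie over them in a human cell line, RKO, derived from a colorectal cancer. The members were chosen by the called peaks themselves, which rest on the IP and input signal: all peaks and summits, in the wild-type (WT) list and in the list of cells overexpressing ZCCHC7 (OE), that overlapped either gene in the deposited annotation. They numbered 9 of the 57 WT peaks and 9 of the 30 OE peaks, or 18 of 87 in all, and each had 1 summit. SAE1 (ENSG00000142230, protein coding) spans chromosome 19, 47113274 to 47210636, plus strand. SAE1P1 (RefSeq symbol), annotated as AP003040.1 (ENSG00000213184, processed pseudogene), lies on chromosome 11, 123017638 to 123018661, plus strand. It is a single exon of 1024 bases.

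SAE1 is one subunit of the enzyme that activates SUMO, a small protein joined to lysines of other proteins. It works as a heterodimer with UBA2, which holds the catalytic cysteine. A processed pseudogene is a copy of a spliced mRNA inserted elsewhere in the genome, so it has no introns. Tags from such a copy and from its parent gene can be hard to tell apart, and the sources used here do not say how the submitters placed tags that fit both. The split of tags between SAE1 and SAE1P1 is therefore uncertain throughout.

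Each genotype, wild type or ZCCHC7-OE, was represented by 1 input and 1 IP library of total RNA. The labels list a ZCCHC7 antibody for the IP, whereas their protocol text describes antibodies against SRSF1 and m6A, so the target of the IP is left unnamed. The sources used here do not give the promoter or the construct behind the overexpression. ZCCHC7 and SRSF1 had 0 peaks in either list, and the 9 epithelial and 10 other cell type markers looked up also had 0, so neither the overexpression nor the cell type could be checked from the peaks. The WT list rested on 896288 IP and 207641 input tags and the OE list on 2725742 and 396820, so the OE IP was 3.04 times and the OE input 1.91 times as deep. With 1 library per group no test between genotypes was possible, and library and genotype cannot be told apart. Intervals are exact 95% intervals for counting error alone: duplicate tags were kept and no molecular identifiers are described, so 2 tags may come from 1 molecule.

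The exon profile of SAE1 was read against transcript SAE1-201, which has 9 exons and an mRNA of 2049 bases, with a 68-base 5′ UTR, 1041 coding bases including the stop codon and a 940-base 3′ UTR. Peaks lay over 8 of the 9 exons in both lists, and exon 8 had none in either. These peaks chose the members, so their presence is a description. Counted by peaks and not by exons, all 8 SAE1 peaks of each list overlapped an exon. Among all peaks outside the mitochondrial genome, 15 of 55 in WT (27.3%) and 11 of 29 in OE (37.9%) overlapped an exon of a coding gene. In each list 8 of these were the SAE1 peaks themselves.

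Tags at the summit, recovered as whole IP tags from the authors' pileup, varied widely along the mRNA. Exon 1 (chromosome 19, 47130863 to 47131028), which holds the 5′ UTR and the start codon, had the most, with 1668 tags in WT (95% interval 1589 to 1750) and 1587 in OE (1510 to 1667). Exon 7 (47197233 to 47197377), a coding exon, followed with 1072 in WT and 1044 in OE. Exons 2, 3 and 9 had fewer than exon 7 and more than exon 4. Exon 2 had 681 (WT) and 661 (OE) tags, exon 3 had 831 and 796, and exon 9, which ends the coding sequence, had 806 and 786. The lowest exons, 4 to 6, adjoin each other and are wholly coding. Exon 4 (47152898 to 47153040) had 254 (WT) and 253 (OE) tags. Exon 5 (47155114 to 47155213) had 73 (57.2 to 91.8) and 52 (38.8 to 68.2), and exon 6 (47169818 to 47169923) had 52 (38.8 to 68.2) and 37 (26.1 to 51). The order of the 8 exons was the same in both libraries. Within each library the intervals of exons 5 and 6 overlapped each other, as did those of exons 3 and 9.

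**Figure D1:**
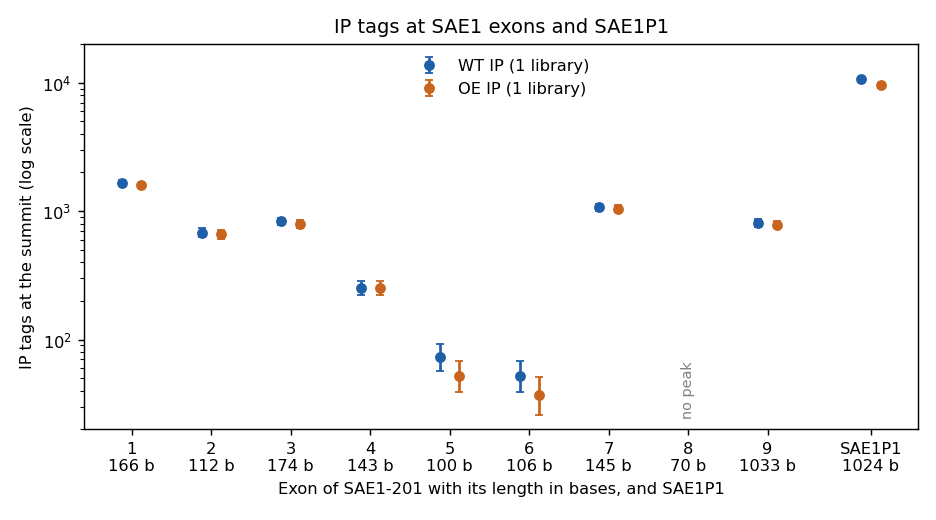
IP tags at the summit (log scale) for each exon of SAE1-201, with its length in bases (b), and for SAE1P1, in the WT (blue) and OE (orange) IP library; bars are exact 95% Poisson intervals. Exon 8 had no peak, exons 5 and 6 stood lowest at 37 to 73 tags, and SAE1P1 stood highest with 10701 and 9661.

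As shares of the tags summed over the 8 summits, the profiles of the libraries were close to each other. Exon 1 held 30.7% of the 5437 SAE1 tags in WT (29.5 to 31.9) and 30.4% of the 5216 in OE (29.2 to 31.7). Exon 7 held 19.7% and 20%. The largest change of any exon was at exon 5, from 1.34% to 0.997%, or -0.346 percentage points. At 6 of the 8 exons the OE share lay inside the WT interval, and the exceptions were exons 5 and 6, the exons with the fewest tags. There too the WT and OE intervals overlapped, at 1.05% to 1.69% and 0.745% to 1.31% for exon 5. For exon 6 they were 0.715% to 1.25% and 0.5% to 0.976%.

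Exon length and tag number went together only loosely. Over the 8 exons with a peak, Spearman's correlation between exon length and tags was 0.74 in both libraries, and over the 6 internal exons among them it was 0.83. Against the coding length of each exon, a measure chosen after the data were seen, the correlation was 0.0952, with 98 and 93 coding bases in exons 1 and 9. Over the 6 exons with q under 0.05 in both lists the correlation with exon length was 0.43. These values describe exons that share their libraries and carry no p. Exon 4 and exon 7 show the scatter: they are 143 and 145 bases long, yet exon 7 had 1072 tags in WT and exon 4 had 254. Exon 2, with 112 bases, and exon 6, with 106, differed as 681 to 52 tags. Exon 8 (47203671 to 47203740), at 70 bases, is the shortest exon.

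Intron length showed little relation to the tags. The 8 introns run from 2073 to 27309 bases. Spearman's correlation between tags and the shorter of the flanking introns was 0.16 in both libraries. Exons 3, 4 and 5 are separated by the shortest introns, of 2522 and 2073 bases, and their WT tags were 831, 254 and 73. Exon 6, between introns of 14604 and 27309 bases, had 52, while exon 7, after the same 27309-base intron, had 1072.

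The peaks sat on exons and reached a limited way into introns. All 8 summits of each list lay inside an exon of SAE1-201, and all 8 inside its coding part. Exon bases made up 40.4% of the WT peak bases and 43.7% of the OE peak bases, against 2.58% of the span of the transcript. Intron bases made up 56.4% and 53.8%. Within 50 bases of the summits the exon share was 95.5% in WT and 91.8% in OE. The peak caller extended every tag to a fixed 226 bases in WT and 237 in OE along the genome, which widens a peak beyond the tags themselves. Over the 6 internal exons with a peak, peaks exceeded the exon by 201 to 259 bases in WT (median 237.5) and by 128 to 274 in OE (median 196.5). The WT overhang was 97 to 141 bases on the 5′ side and 100 to 136 on the 3′ side. In OE the 5′ overhang at exon 6 was 2 bases, and the other side reached 129.

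Looked at from the features, the peaks covered 93.3% of the coding bases in both lists, and the missing coding bases were the 70 of exon 8. They covered 100% of the 68-base 5′ UTR, 16.5% of the 3′ UTR and 2.16% (WT) or 1.9% (OE) of the intron bases. On the 5′ side the peak overhung the coding part of exon 1 by 162 bases in WT and 138 in OE. Because tags were extended, full coverage of so short a UTR does not show that tags lay in it. The last peak ended at base 1264 of the 2049-base mRNA in both lists. The first began 94 bases before the start of SAE1-201 in WT and 70 in OE. With all SAE1 transcripts merged, this exon starts further 5′, at 47130782. The WT peak began just before that base, at 47130769, and the OE peak after it, at 47130793.

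At the terminal exons the summits lay at the centre of the coding part and not of the exon. In exon 1 the summit was 32.5 bases from the exon's centre in WT and 34.5 in OE, but -1.5 and 0.5 bases from the centre of its 98 coding bases. In exon 9 (chromosome 19, 47209159 to 47210191) the summit was -477 and -480 bases from the exon's centre, and -7 and -10 bases from the centre of its 93 coding bases, stop codon included. The peak overhung those coding bases by 139 bases on the 5′ side and 155 on the 3′ side in WT, and by 150 and 155 in OE. Leaving out exons 5 and 6, which had the fewest tags, every summit lay within 7 bases of the coding centre in WT and within 10 in OE. At exon 5 the distances were 11.5 and 39.5 bases, and at exon 6 they were 15.5 and 11.5. The distances at exon 9 depend on the transcript: SAE1-203 codes further into this exon, for 167 bases, and against its centre the summits lay at -44 and -47.

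**Figure D2:**
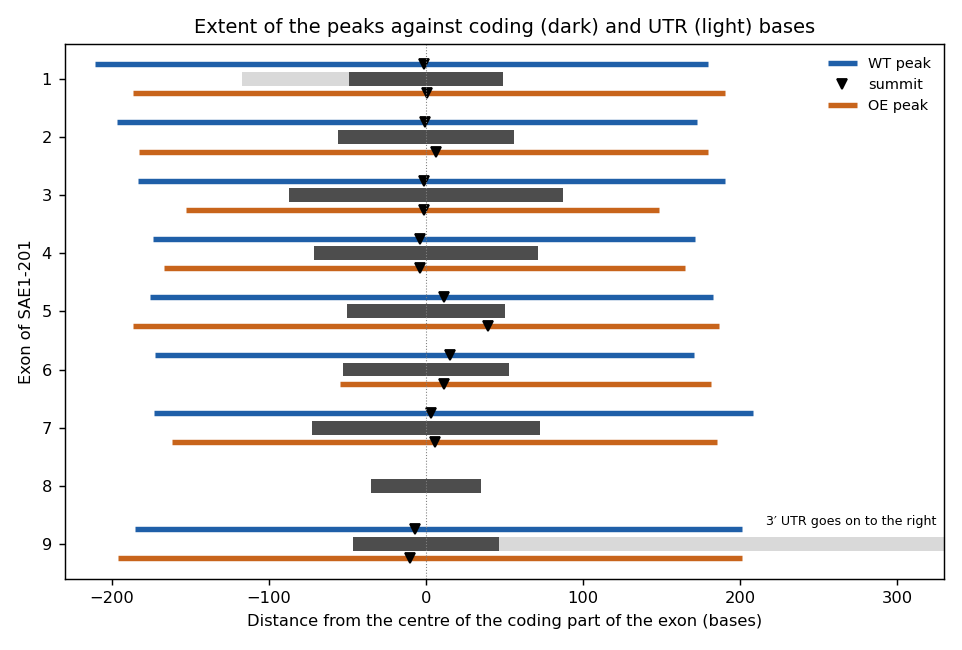
Extent of the WT (blue) and OE (orange) peaks and their summits (triangles) over the exons of SAE1-201, in bases from the centre of the coding part (dark; UTR bases light). Summits sit near 0 in exons 1 and 9 although their UTR bases lie to 1 side, and exon 8 carries no peak.

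SAE1 has 11 annotated transcripts, 9 protein coding and 2 marked for nonsense-mediated decay. Their exons merged into 15 blocks, of which 8 carried a peak in each list. All 8 hold an exon of SAE1-201, and the 6 blocks that SAE1-201 lacks carried none. Those 6 are the upstream first exons of SAE1-205 and SAE1-206, further 5′ exons of SAE1-205, SAE1-206 and SAE1-210, and the 158-base exon of SAE1-204 between exons 6 and 7 (47180146 to 47180303). Transcripts were counted by overlap with each exon as it stands in SAE1-201. Exon 3 is in 11 of 11, exons 2 and 4 in 10, and exons 5 and 6 in 8. Exon 1 is in 7, exon 9 in 6, exon 8 in 5 and exon 7 in 4. The merged block of exon 1, 47130782 to 47131112, also holds exons of SAE1-208 and SAE1-210, so 9 transcripts share it. Those exons do not overlap exon 1 of SAE1-201, yet peaks of both lists overlapped them. Tag numbers did not follow the transcript counts: exon 7, in the fewest transcripts, had 1072 WT tags, and exon 6, in 8, had 52. SAE1-202 and SAE1-203 lack exon 7, SAE1-203 also lacks exon 8, and SAE1-209 lacks exons 4 and 5. The 3 transcripts with all 9 exons are SAE1-201 and the decay-marked SAE1-204 and SAE1-207. No SAE1 transcript holds exon 7 and lacks exon 8. Tags at single exons cannot assign reads to a transcript. SAE1 and AP003040.1 had 0 of the 471 events in the deposited splicing tables.

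**Figure D3:**
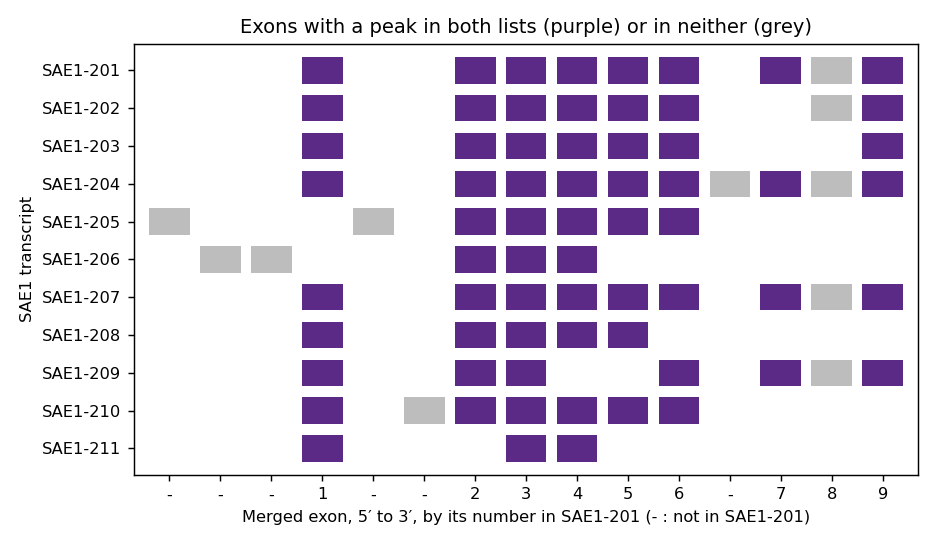
Exons of the 11 SAE1 transcripts, merged into 15 blocks in 5′ to 3′ order and numbered as in SAE1-201 (- where SAE1-201 lacks the block); widths are not to scale. Purple blocks carried a peak in both lists and grey blocks in neither, so the 6 blocks outside SAE1-201 and exon 8 are grey.

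SAE1P1 carried 1 broad peak in each list. In WT it ran from 123017728 to 123018738, 1011 bases, and in OE from 123017770 to 123018690, 921 bases. It started 90 bases inside the annotated copy in WT and 132 in OE, and ended 77 and 29 bases past its end. The peak covered 91.2% of the 1024 bases in WT and 87.1% in OE. Its summits, at 123018203 and 123018207, lay 4 bases apart, at bases 566 and 570 of the copy. The copy's annotated length is 17 bases short of the coding sequence of SAE1-201 and 1025 bases short of its mRNA. No genome sequence was used here, so positions in the copy were not matched to SAE1 exons. SAE1P1 was the single gene of the annotation class processed pseudogene with a peak in either list, among 10191 of that class, which leaves out transcribed processed pseudogenes. No other gene was annotated under any member peak, and the genes next to SAE1 (ZC3H4, which overlaps its 5′ end, TMEM160 and BBC3) and to SAE1P1 (BSX and RPL34P23) had 0 summits.

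Its summit had 10701 tags in WT (10499 to 10906) and 9661 in OE (9469 to 9856). That was 6.42 times the tags of exon 1 in WT and 6.09 times in OE. Against the 8 SAE1 summits together the ratio was 1.97 in WT (1.9 to 2.03) and 1.85 in OE (1.79 to 1.92). A summit counts tags that reach it within 1 extension length, so its window is set by a reach of 226 (WT) or 237 (OE) bases along the genome. Exons 1 to 7 are 100 to 174 bases long, so their windows also take in bases outside the exon. The exon 9 summits, at 47209198 (WT) and 47209195 (OE), lie near the exon's start at 47209159, so their windows also enter the intron. The window in the unbroken copy does not meet introns. The ratio to the SAE1 summits together also sets 1 window of the copy against 8 windows. These ratios therefore do not compare equal lengths of mRNA. The tags at the 9 summits together made up 1.8% of all WT IP tags and 0.546% of all OE IP tags; tags of the wide SAE1P1 peak outside its summit window are not in these shares.

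The input showed the members too, at low counts. IP and input together called the peaks that chose the members, so their levels and ratios are descriptions. The local background that the peak caller set beside each summit, computed from the authors' pileup and fold, was whole at all 9 OE members and at 6 of the 9 WT members, where it is the number of input tags in a window at the summit. At WT exons 4, 5 and 6 it equalled the background of 0.224 tags that the stated genome size gives, which means 0 input tags in the window. For a count of 0 a fixed allowance of 3 tags was set, or 14.4 per 1000000 input tags in WT. It is not one of the exact intervals given elsewhere. SAE1P1 had 17 input tags in WT (9.9 to 27.2) and 122 in OE (101.3 to 145.7). Exon 1 had 11 in WT and 32 in OE, exon 3 had 2 and 17, exon 9 had 5 and 13, exon 7 had 4 and 11, and exon 2 had 2 and 5. Exons 4, 5 and 6 had 2, 1 and 1 in OE.

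Scaled to input depth, SAE1P1 and the summed SAE1 windows stood higher in OE than in WT. SAE1P1 had 81.9 input tags per 1000000 in WT and 307.4 in OE, a ratio of 3.76 (2.25 to 6.66). The 8 SAE1 windows together had 115.6 and 206.6 per 1000000, from 24 and 82 tags, a ratio of 1.79 (1.12 to 2.95). By value all 8 exons were higher in OE, but only at exon 3 did the interval of the ratio exclude 1, at 4.45 (1.06 to 39.7). Exon 3 gave 2 of the 24 SAE1 tags in WT and 17 of the 82 in OE, so the summed ratio leans on it. Exons 4, 5 and 6 had 0 tags in WT and 2, 1 and 1 in OE. At 6 other shared peaks whose background was whole or 0, summed, the input ratio was 1.1 (0.476 to 2.77), from 9 and 19 tags. That interval overlaps both others. The input windows were 226 bases wide in WT and 237 in OE.

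**Figure D4:**
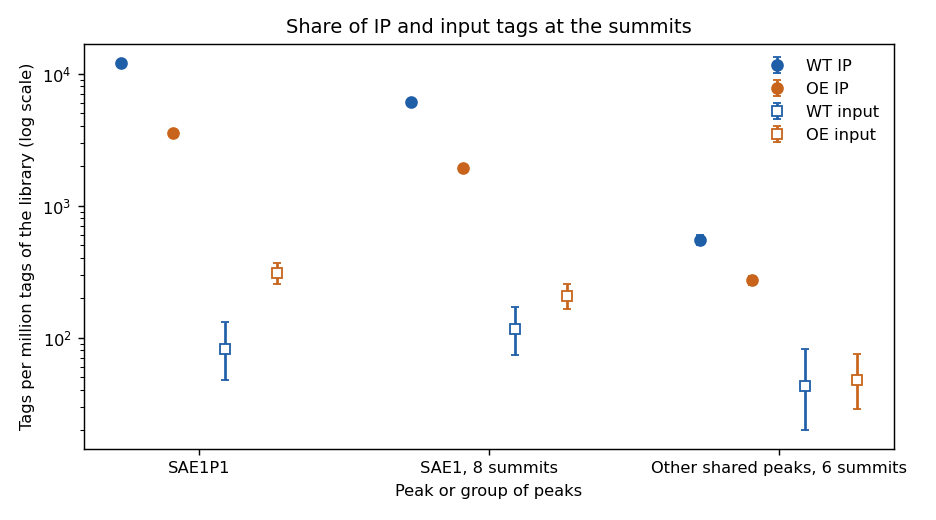
Tags per 1000000 tags of the library (log scale) at SAE1P1, at the 8 SAE1 summits summed and at 6 other shared peaks summed, in the IP (filled circles) and input (open squares) of WT (blue) and OE (orange); bars are exact 95% Poisson intervals, 1 library each. At SAE1P1 the IP value is 11939 in WT and 3544 in OE, while the input value is 81.9 and 307.4.

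IP depth-scaled tags went the other way. SAE1P1 had 11939 tags per 1000000 IP tags in WT and 3544 in OE, 0.297 times WT (0.289 to 0.305). The 8 SAE1 summits had 6066 and 1914, 0.315 times (0.304 to 0.328). The scaling decides the size of this difference: the unscaled tag ratios were 0.903 for SAE1P1 and 0.959 for SAE1, and scaled to input tags they were 0.472 and 0.502. The 8 exon ratios ran from 0.234 to 0.328, and all 8 intervals held the summed SAE1 ratio. The interval of SAE1P1 touched the low end of that of SAE1, which runs from 0.304.

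The authors' fold over background was lower in OE at every member. At SAE1P1 it was 137.8 in WT and 11.4 in OE. IP over input, each scaled to its library, was 145.8 in WT (91 to 250.4) and 11.5 in OE (9.64 to 13.9). Over the SAE1 summits together it was 52.5 (35.2 to 82) and 9.26 (7.45 to 11.7). At exon 3 the fold was 64.5 in WT and 6.49 in OE, and at exon 2 it was 52.9 and 16.2. The order of these exons was not resolved: each rested on 2 input tags in WT, and their intervals of IP over input overlapped in both libraries. The folds of exons 4, 5 and 6 in WT, 48.9, 14.6 and 10.7, rest on the genome-size background and not on input tags.

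The weakest member was exon 6 in OE, with a p of 0.000594 in the authors' list, inside the cutoff of 0.005. The least significant peak listed had a p of 0.00496 in WT and 0.00453 in OE. The fewest tags at any listed summit were 9 in WT and 29 in OE. These are observed values and not detection limits, since the local background also enters the call, and no tag number was recovered for exon 8. At q under 0.05 SAE1 kept 8 exons in WT and 6 in OE, without exons 5 and 6, where 40.4% of all WT peaks and 50% of all OE peaks passed. At p under 1e-05 it also kept 8 and 6, where 57.9% and 60% of all peaks passed. Since the rule used these lists, nothing is read from those counts.

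All 9 member peaks overlapped between the lists, 9 of 9 in each, where 28.1% of all WT peaks and 53.3% of all OE peaks overlapped a peak of the other list. The summits of a pair lay 0 to 28 bases apart, with a median of 3. Among the 16 peaks present in both lists, 75% had an OE over WT ratio of depth-scaled tags whose interval lay under 1; these were 9 of 9 members and 3 of the other 7. By the rule for likeness, the nearest to SAE1P1 in this ratio over the 2 IP libraries were RAD21, a cohesin subunit, at 0.29 (0.202 to 0.417), RMRP, the RNA of a ribonuclease complex, at 0.276 (0.206 to 0.369), and a peak outside genes on chromosome 12 at 0.245 (0.197 to 0.305). Their intervals overlap that of SAE1P1. Their inputs were small: RAD21 had 3 tags in WT and 2 in OE, RMRP 2 and 1, and the chromosome 12 peak 1 and 6.

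**Figure D5:**
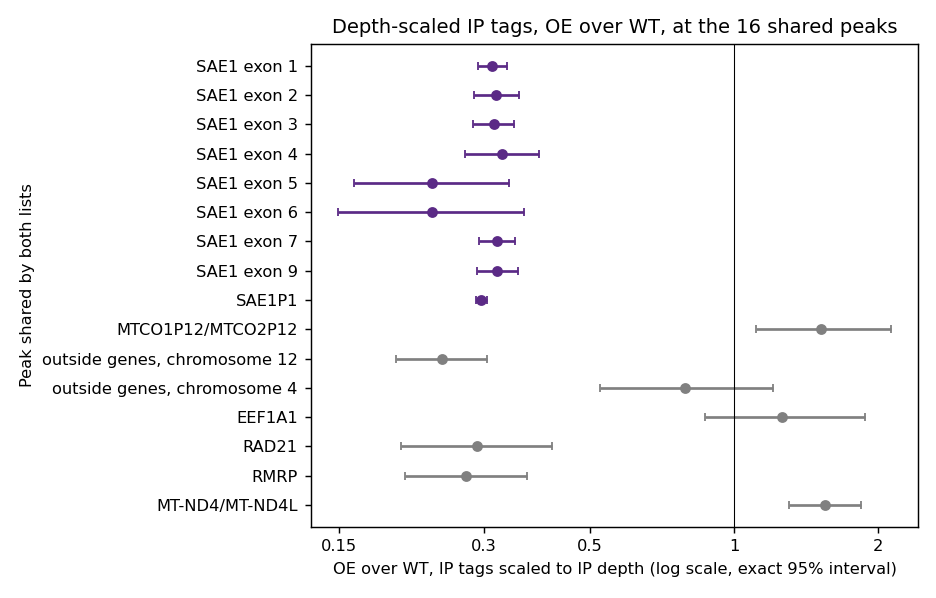
OE over WT ratio of IP tags scaled to IP depth (log scale) at the 16 peaks shared by both lists, with exact 95% intervals; members are purple and other peaks grey. All 9 members lie between 0.234 and 0.328, beside RAD21, RMRP and the chromosome 12 peak, while 2 of the other peaks have intervals above 1.

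SAE1 had 8 peaks in each list, and these peaks chose it, so their number beside other genes is a description. No other gene outside the mitochondrial genome had more than 2 peaks in WT, where ANKDD1A had 2, or more than 3 in OE, where AL669831.3, a locus annotated as a transcribed processed pseudogene, had 3. The other peaks over exons of coding genes, 7 in WT and 3 in OE, each lay in a different gene. Their median share of bases within exons was 70.5% in WT (13.3% to 100%) and 86.1% in OE (57.7% to 100%), against 39.6% and 43.8% for the SAE1 peaks over exons merged from all transcripts. The internal SAE1 exons with a peak are 100 to 174 bases long, shorter than any SAE1 peak. Peaks there could not lie wholly within their exon, so the shares do not compare like exons. No test was made of these differences.

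Few coding genes carried a peak at all: 14 of 19938 outside the mitochondrial genome in WT (0.0702%) and 5 in OE (0.0251%), SAE1 included. Of 26 genes of the SUMO pathway, among them UBA2, SUMO2, the SENP proteases that remove SUMO and the PIAS ligases, 0 had a peak in either list. The same held for the 8 other activating enzymes of the family, such as UBA1 and NAE1, and for 11 well known SUMO targets, such as RANGAP1 and PML. With so few genes carrying a peak, these counts show nothing particular to the lists. In the authors' deposited table TRIM28 and SAFB had 1 retained-intron event each, both with a p of 1.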

How the data were processed

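RNA of 4 libraries was sequenced, 1 input and 1 IP for each genotype. The authors called peaks with MACS 2.1.0.20150420 per genotype, per the file headers, with a p cutoff of 0.005, duplicates kept, a tag size of 150 bases and an effective genome size of 209714707. The submitters' processing notes also name FastQC 0.11.5 and HOMER. Aligner and genome build: not given in the sources used here. Coordinates are those of the deposited files. The deposited lists give a pileup signal scaled to the smaller library, −log10 values of p and q, and the fold ratio of that signal to its local background. The authors' deposited splicing tables were used for their p-values only.

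IP tags are the pileup times the ratio of IP to input tags, 4.32 in WT and 6.87 in OE, and all 67 WT and 39 OE summits were whole within 0.1. Background is (pileup + 1)/fold − 1, since MACS adds 1 to both, and was called whole within 0.01. Both steps were run on simulated peaks built with the same formulas, which checks the arithmetic and rounding alone. The simulated background was a window count or the genome-size background, so wider local backgrounds were not tested. Intervals are exact (Poisson for counts, conditional binomial for ratios, Clopper-Pearson for shares). Scripts ran in Python 3.11.15 with scipy 1.17.1.

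The members, the gene lists and the tests were chosen with earlier results of these data known. All members were named. Some genes of the lists are not reported here. Outside them the rule named the 3 shared peaks nearest in OE over WT ratio. Alternatives covered scaling, peak thresholds, exon definition and the pseudocount.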

Additional observations from a re-analysis of the deposited data

How the results depend on the processing

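Scaling decided the size of the OE over WT tag ratio and not its side of 1. For SAE1 it was 0.315 by IP depth, 0.502 by input tags and 0.959 unscaled. For SAE1P1 it was 0.297, 0.472 and 0.903. The exon share of the peak bases rose from 40.4% to 95.5% (WT) and from 43.7% to 91.8% (OE) within 50 bases of the summits. Spearman's correlation of tags with exon length went from 0.74 to 0.43 over exons with q under 0.05 and to 0.0952 with coding length, chosen after the data were seen, in both libraries. The other 19 recomputed values stayed within 1.5 times of the main value. Among them, the OE count of SAE1 exons with a peak fell from 8 to 6 at q under 0.05. The exon share over merged exons was 46% in WT and 49.3% in OE. No paired analysis was possible because each group had 1 library. Depth limits the input most, with 0 to 17 tags per member window in WT.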
